A study of Drosophila melanogaster with 8 samples.

Results

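Of 44 named neuropeptide and peptide hormone precursors of Drosophila melanogaster, 34 had a probe set that named them alone, 1 probe set each, among 11981 genes with such a probe set and 18769 probe sets other than controls. A member was taken by its gene symbol or an older synonym in the platform's probe-to-gene table, whatever its signal. The other 10 (AstA, Dsk, Hug, Ilp1, Ilp3, Ilp4, Ilp6, Pburs, Tk and Gpa2) were matched to no single-gene probe set in that table and were not analysed here. Only 6 precursors (17.6% of the 34) lay above 4 on the log2 scale on both arrays of any group, where 39.9% to 40.3% of all probe sets did so in each of the 4 groups. None of these 6 differed between the genotypes at an adjusted p under 0.05 in limma, beside 1.50% of all tested probe sets. Without the 2 stage 16 arrays of weak 5' signal, the averaged change of Nplp2 was -0.25, with no replicate left at stage 16. Mip, Pdf and Nplp1 were above 4 on both arrays at stage 16 alone and CCHa2 was brighter there than at stage 14, in differences that cross stages with likely separate normalization and have no test.

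The series measured RNA of whole dechorionated embryos in which the transcription factor DIMMED was supplied to neurons. Elav-dimm embryos had the genotype w;UAS-dimm2A3/+;elav-GAL4/+, in which the neuronal driver elav-GAL4 switches on a myc-tagged dimm transgene, and control embryos came from the driver strain w;;elav-GAL4. There were 4 groups with 2 Affymetrix arrays each: elav-dimm and control embryos of stage 16, 28 to 32 h after egg laying, and elav-dimm and control embryos of stage 14, 22 to 26 h after egg laying per the sample labels. In the text on the whole series, stage 14 begins at 24 h instead. All eggs were collected at 18 °C from adults reared at 25 °C. Both genotypes thus carried elav-GAL4, with 1 copy in elav-dimm embryos, which also carried chromosomes of the transgene line. DIMMED came from 1 transgene line. It is unclear from the submitters' description whether both arrays of a group received the same RNA, so the spread behind every p-value is that between arrays and could be technical only.

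Peptide hormones are made as larger precursors that enter the secretory pathway, are cut at basic residues by the convertase amon and often amidated at the C terminus by the products of Phm and the Pal genes, and are then stored in dense core vesicles. In the fly most precursors are made by small, fixed sets of neurons, endocrine gland cells or gut cells. DIMMED, of the basic helix-loop-helix class, is present in many such cells and is known for raising their secretory capacity, with Phm among its direct targets. The comparison therefore asked whether DIMMED in neurons at large also changed the transcripts of the precursors themselves.

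On every array 40.4% to 40.8% of probe sets lay above 4, and the lowest value was 2.182 on all stage 14 arrays and 2.186 on all stage 16 arrays. No probe set had a value in common between a stage 14 and a stage 16 array (0 of 18952), while 11158 had a value in common between arrays of stage 14 and 10703 between arrays of stage 16, a pattern that separate normalization of the stages would leave. Levels at the 2 stages are therefore set side by side below without a test. The 2 stage 16 arrays numbered 1 had weak 5' signal: the 3' minus 5' difference of the actin control transcript was 8.0 and 8.69 there, against 2.93 to 4.48 on the other 6 arrays. The dimm signal itself was 5.51 and 8.26 in elav-dimm embryos against 2.53 and 2.68 in control embryos at stage 16, and 7.59 and 7.66 against 2.86 and 2.80 at stage 14. The 5.51 came from a number 1 array of weak 5' signal. Whole-embryo markers were present: 3 of 5 neuronal genes with a probe set, 5 of 5 glial, 3 of 3 muscle, 4 of 4 neuroblast, 5 of 5 epidermal, 3 of 5 haemocyte, 2 of 4 fat body, 1 of 2 midgut, 1 of 2 salivary gland and 2 of 3 germline genes lay above 4 on both arrays of a group. Some of these markers moved with genotype. The glial gene repo had 9.53 and 9.26 in elav-dimm against 10.28 and 10.31 in control embryos at stage 16, and 9.96 and 10.13 against 10.70 and 10.71 at stage 14. It fell on average by 0.78 (adjusted p = 0.0256 in limma), as 1 of 5 glial genes, and the cuticle gene Cpr49Ac rose by 0.66 (adjusted p = 0.0441), as 1 of 5 epidermal genes. With the replicate numbers as a block, the glial genes moody (-0.33, adjusted p = 0.0398) and Gs2 (0.36, adjusted p = 0.0489) and the muscle gene Mlc2 (-0.57, adjusted p = 0.0172) passed on average too. The median averaged change was -0.18 over the 5 glial genes, 0.11 over the 5 epidermal genes, 0.04 over the 3 muscle genes and 0.02 over the 3 neuronal genes. Their part in the precursors' values was not tested. In RNA of whole embryos, fewer cells of a type and less RNA per cell cannot be told apart.

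**Figure D1:**
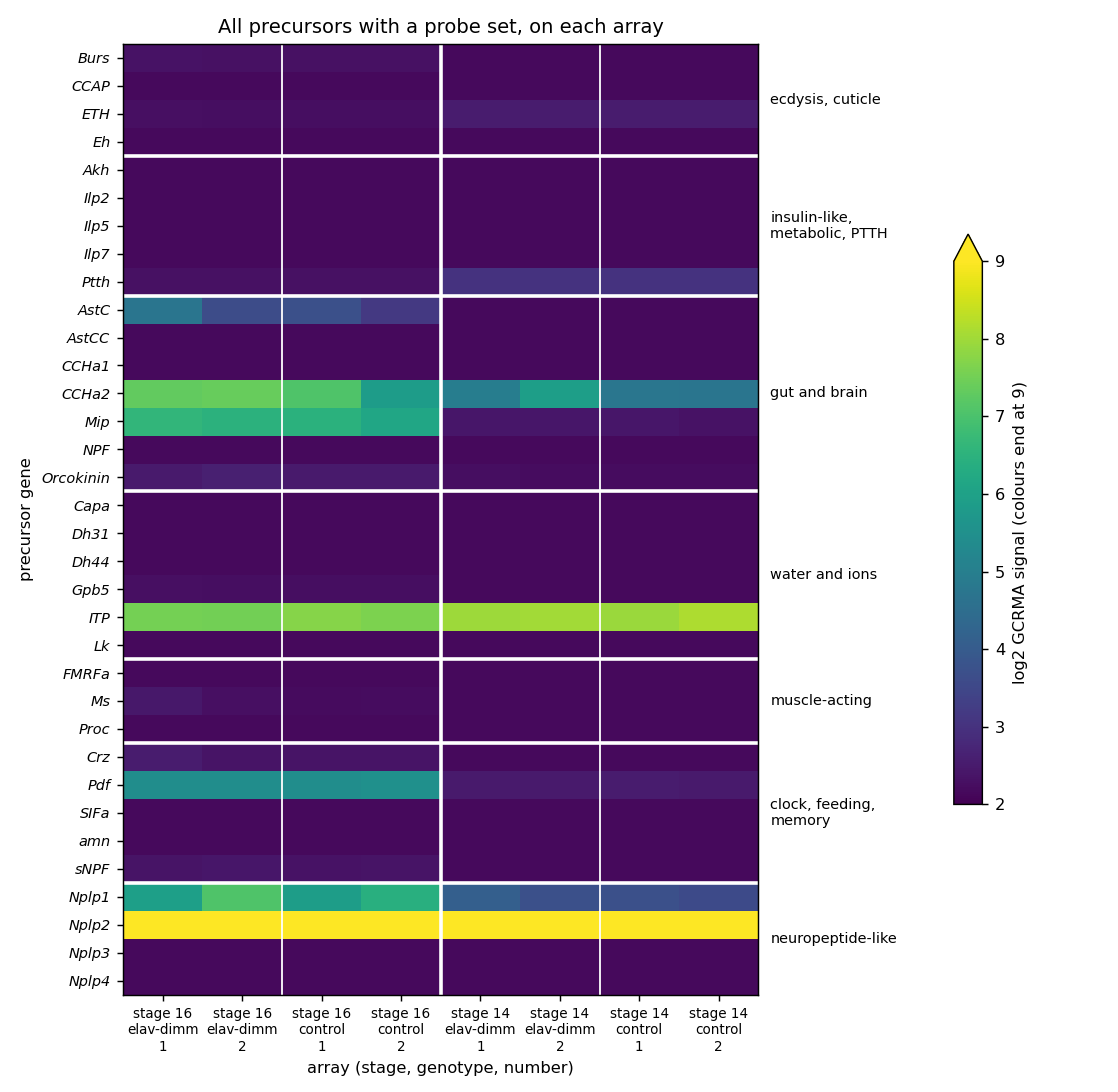
Log2 GCRMA signal of the 34 precursors (rows, grouped by role) on the 8 arrays (columns, by stage, genotype and number), with colours ending at 9. Most rows stay at the floor on all arrays, and CCHa2, Mip, Pdf, Nplp1 and AstC are brighter on the stage 16 arrays of both genotypes.

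The same precursors were detected in both genotypes of a stage. Above 4 on both arrays were CCHa2, ITP, Mip, Nplp1, Nplp2 and Pdf in elav-dimm embryos of stage 16, and the same 6 in control embryos of stage 16. At stage 14 only CCHa2, ITP and Nplp2 did so, again in elav-dimm and in control embryos. Nplp1 was above 4 on 1 of 2 elav-dimm arrays at stage 14 and AstC on 1 of 2 elav-dimm arrays at stage 16. The detected share was 17.6% of the precursors in each genotype at stage 16 and 8.82% in each at stage 14, against 39.9% to 40.3% of all probe sets in the 4 groups.

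At the floor, taken as within 0.01 of the lowest value of a stage, lay 19 precursors on all 8 arrays, or 55.9% of the 34, against 41.0% of all probe sets. They were CCAP and Eh of the ecdysis hormones, the adipokinetic hormone gene Akh, the insulin-like genes Ilp2, Ilp5 and Ilp7, and AstCC, CCHa1 and NPF of the gut and brain peptides. Capa, Dh31, Dh44 and Lk, which act on water and ion transport, FMRFa and Proc, which act on muscle, SIFa and amn, and Nplp3 and Nplp4 completed them. A signal at the floor is background on this array and does not show that a transcript was absent. No genotype difference can be read for these 19 genes.

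Between the floor and the detection limit lay 9 precursors: AstC, Crz, ETH, Ms, Burs, sNPF, Orcokinin, Gpb5 and Ptth. Apart from AstC, none reached above 3.022 on any array. Ptth, which encodes the brain hormone that triggers ecdysteroid synthesis, had 2.32 on all 4 stage 16 arrays and 3.02 on all 4 stage 14 arrays. ETH, the ecdysis-triggering hormone gene of the tracheal endocrine cells, had 2.30 and 2.27 in elav-dimm and 2.27 and 2.27 in control embryos at stage 16, and 2.55 on all 4 stage 14 arrays. One value repeated over all arrays of a stage gives no measure of differences between embryos, so neither gene says anything about the genotypes at stage 14.

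Several of the dim precursors were off the floor at stage 16 alone. Of 25 precursors at the floor on all stage 14 arrays, 5 (AstC, Crz, Burs, sNPF and Gpb5) were off it on all 4 stage 16 arrays, or 20%, beside 9.03% of all probe sets that were at the floor at stage 14. The corazonin gene Crz, a stress and metabolism peptide, had 2.53 and 2.37 in elav-dimm and 2.37 and 2.36 in control embryos at stage 16. For sNPF, the short neuropeptide F gene of feeding circuits, the values were 2.37 and 2.42 in elav-dimm against 2.34 and 2.36 in control embryos. The elav-dimm arrays of sNPF lay above both control arrays by a few hundredths of a log2 unit, and those of Crz did so on 1 array and tied on the other. The myosuppressin gene Ms, whose peptide inhibits visceral muscle, had 2.46 and 2.29 in elav-dimm embryos, against a mean of 2.21 in control embryos with both arrays below those values. Such small steps above background have no reliable size. Gpb5, a glycoprotein hormone subunit gene, reached at most 2.28, Burs, a subunit gene of the cuticle-hardening hormone bursicon, had 2.33 on all 4 stage 16 arrays, and Orcokinin lay between 2.51 and 2.62 at stage 16 and between 2.24 and 2.25 at stage 14.

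AstC encodes allatostatin C, a peptide of brain and gut endocrine cells. Its signal at stage 16 was 4.71 and 3.64 in elav-dimm embryos, against 3.70 and 3.15 in control embryos, so the groups overlapped. Within the number 1 arrays the difference was 1.01 and within the number 2 arrays 0.49. At stage 14 all 4 arrays lay at the floor. AstCC, its neighbour in the RefSeq gene table with 0 protein-coding genes between them, stayed at the floor on every array. Ilp2 and Ilp5, members of the insulin-like gene cluster, did so too.

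**Figure D2:**
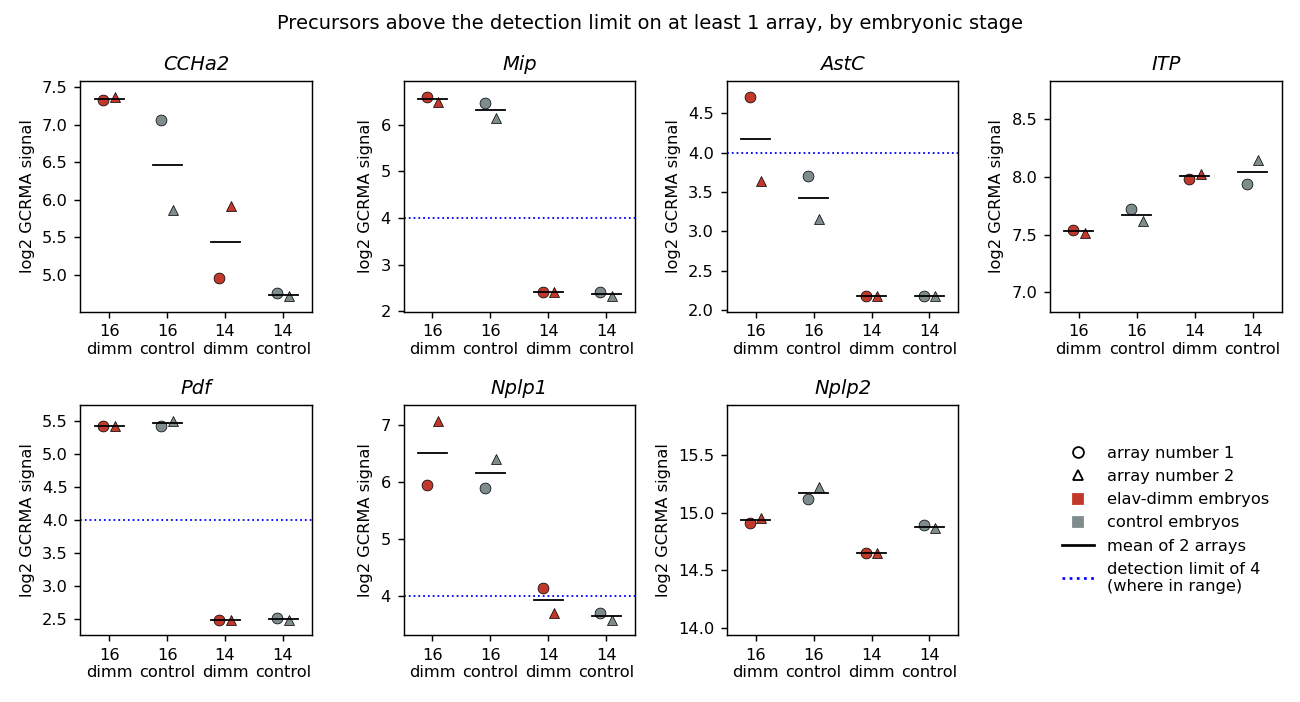
Log2 GCRMA signal of the 7 precursors above 4 on at least 1 array (points, by stage and genotype, with the mean of 2 arrays as a bar and its own vertical range in each panel). Signals of the stages overlap in CCHa2 alone, and only ITP is lower at stage 16. The Nplp2 points of elav-dimm embryos lie below those of control embryos at both stages, by 0.24 and 0.23.

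CCHa2 encodes a peptide of gut endocrine cells and fat body that, in the larva, signals nutrition to the insulin-producing neurons. Its signal at stage 16 was 7.33 and 7.37 in elav-dimm embryos and 7.06 and 5.86 in control embryos. At stage 14 it was 4.96 and 5.91 in elav-dimm embryos and 4.76 and 4.72 in control embryos. The elav-dimm arrays were higher without overlap at both stages, but the arrays of 1 group differed by up to 1.20. Averaged over the stages, limma gave a log2 change of 0.79 ± 0.33 (SE; 4 elav-dimm and 4 control arrays), or 1.73-fold. The 95% interval ran from -0.04 to 1.63 and the adjusted p was 0.447. Within the number 1 arrays of stage 16 the difference was 0.27 and within the number 2 arrays 1.51, the larger one against the lower control array. Without that array the average change was 0.49, and without the first control array 1.09.

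Mip, also known as allatostatin B, encodes the myoinhibitory peptides of central neurons and gut. At stage 16 its signal was 6.60 and 6.50 in elav-dimm embryos against 6.47 and 6.15 in control embryos, without overlap. At stage 14 it was 2.42 on both elav-dimm arrays, and 2.42 and 2.33 in control embryos, with 1 value shared by 3 of these 4 arrays. The stage 16 change was 0.24 ± 0.13 (2 arrays against 2, adjusted p = 0.794 in limma), with an interval from -0.08 to 0.56. With the replicate numbers as a block its adjusted p was 0.194.

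ITP encodes the ion transport peptides, antidiuretic hormones of neuroendocrine cells. Its signal was 7.54 and 7.52 in elav-dimm embryos against 7.72 and 7.62 in control embryos at stage 16. At stage 14 the values were 7.99 and 8.02 in elav-dimm against 7.94 and 8.15 in control embryos. The groups did not overlap at stage 16, where elav-dimm was lower, and overlapped at stage 14. The average change was -0.09 ± 0.07, with an interval from -0.27 to 0.09 and an adjusted p of 0.808 in limma.

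Pdf encodes pigment-dispersing factor, the output peptide of clock neurons. Its signal was 5.43 on both elav-dimm arrays at stage 16, against 5.43 and 5.51 in control embryos, and 2.49 on both elav-dimm arrays at stage 14, against 2.52 and 2.49 in control embryos. On 3 of the 4 stage 16 arrays the deposited Pdf value was identical in every decimal. Such ties on at least 3 arrays occurred in 23 of 609 probe sets with a stage 16 mean between 5 and 6, or 3.78%. The Pdf signal at stage 16 thus gives little measure of the spread between arrays, and the narrow interval of its average change (-0.16 to 0.11, adjusted p = 1 in limma) is not a tight limit on a genotype difference.

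Nplp1 encodes the precursor of several peptides of neurosecretory cells in the ventral nerve cord and brain. At stage 16 its signal was 5.95 and 7.08 in elav-dimm embryos against 5.90 and 6.41 in control embryos. The number 2 arrays were the higher ones in both genotypes, and the groups overlapped. At stage 14 elav-dimm embryos had 4.13 and 3.70 against 3.70 and 3.58 in control embryos, where the nearest arrays of the genotypes were 3.698 and 3.697. The average change was 0.32 ± 0.29, with an interval from -0.40 to 1.04 and an adjusted p of 0.846 in limma, and 0.208 with the replicate numbers as a block. It was 0.60 without the first elav-dimm array of stage 16, 0.04 without the second, 0.19 without the first control array of stage 16 and 0.21 without the first elav-dimm array of stage 14.

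Nplp2 was named from peptides found in the larval nervous system and is also described as an apolipoprotein made by the fat body. Its signal was 14.91 and 14.96 in elav-dimm embryos against 15.12 and 15.22 in control embryos at stage 16, and 14.66 and 14.65 against 14.89 and 14.87 at stage 14. The elav-dimm arrays were lower without overlap at both stages, by 0.24 and 0.23. Averaged over the stages the change was -0.23 ± 0.06, a ratio of 0.851 with an interval from -0.37 to -0.09, and it did not pass (adjusted p = 0.158 in limma, and 0.0559 with the replicate numbers as a block). Without both low 5' arrays of stage 16 it passed, at -0.25 with an adjusted p of 0.0319, when 9.88% of all probe sets passed. The fat body lipoprotein gene apolpp differed by 0.00 ± 0.08 and the fat body gene Lsd-2 by -0.08 ± 0.31, and the fat body genes Lsp2 and Fbp1 lay below 4 on all arrays.

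**Figure D3:**
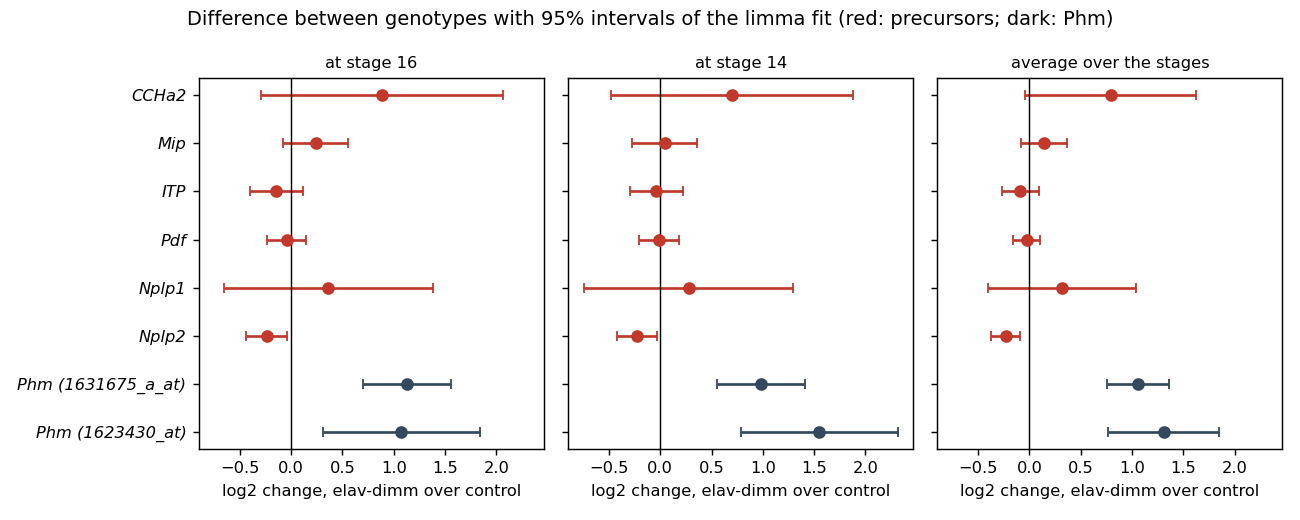
Log2 change of elav-dimm over control embryos (horizontal axis) at stage 16, at stage 14 and averaged, with 95% intervals of the limma fit, for the 6 precursors tested and for both probe sets of Phm. The averaged intervals of CCHa2, Mip, ITP, Pdf and Nplp1 include 0, that of Nplp2 lies from -0.37 to -0.09, and those of Phm begin at 0.75 and 0.77.

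Across the 6 precursors tested, none passed in limma for the effect averaged over the stages, beside 1.50% of all 8258 tested probe sets, and 1 of the 6 (Nplp2) had an unadjusted p under 0.05, as did 994 of the 8258. None passed at stage 16 (0.363% of all probe sets did) or at stage 14 (0.339%). Again 1 of the 6, Nplp2, had an unadjusted p under 0.05 at each, as did 658 of the 8258 at stage 16 and 661 at stage 14. The supplied gene dimm itself missed the threshold in limma at stage 16 (4.28, adjusted p = 0.176) and at stage 14 (4.79, adjusted p = 0.157). It passed only on average (4.54, adjusted p = 0.0386). A miss at a single stage therefore does not show that a precursor was unchanged. With the replicate numbers as a block none passed either, beside 7.74% of all probe sets averaged, 2.65% at stage 16 and 1.90% at stage 14. For the difference of the dimm effect between stages none passed, beside 0.0121% of all probe sets or 0.0363% with the block, and none of the 6 had an unadjusted p under 0.05, which 249 of the 8258 had. Without both low 5' arrays, 1 array per genotype was left at stage 16 and the spread came from stage 14 alone. Calls of precursors are therefore not read from that fit. Of all probe sets, 9.88% passed in it on average, 4.92% at stage 16, 0.896% at stage 14 and 0.460% for the difference. With all arrays kept, averaged changes of the 6 were positive in 3 (CCHa2, Mip and Nplp1) and negative in 3 (ITP, Pdf and Nplp2). Their median was 0.06, beside 0.0015 over all probe sets tested. Arrays of the genotypes did not overlap in 4 of 6 at stage 16, beside 22.0% of all probe sets, with 2 higher (9.69% of all) and 2 lower (12.4%). At stage 14 they did not overlap in 3 of 6, beside 52.2%, with 2 higher (33.0%) and 1 lower (19.3%). One of the higher ones, Nplp1, was apart only in the third decimal of signals below 4. At both stages without overlap, 1 of 6 was higher (6.78% of all) and 1 lower (5.26%).

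Phm, the gene of the peptide amidating enzyme and a known target of DIMMED, was measured by 2 probe sets in the same fit. The first had 10.99 and 11.20 in elav-dimm against 9.74 and 10.20 in control embryos at stage 16, and 11.42 and 11.42 against 10.40 and 10.48 at stage 14. Its signal rose on average by 1.06 ± 0.12 (adjusted p = 0.0272 in limma). The change of the second, 1.31 ± 0.22, missed the threshold (adjusted p = 0.0681 in limma) but passed it with the replicate numbers as a block (adjusted p = 0.0158).

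Most of the processing genes were detected. Of 9 processing genes with a probe set, 8 lay above 4 on both arrays of each genotype at stage 16, and 5 did so in each at stage 14. Of these 8 genes 1 passed on average, Phm, and was higher, beside 1.50% of all probe sets tested. With the replicate numbers as a block 2 were higher, Phm and 7B2, the chaperone gene of the convertase (0.68 ± 0.07, adjusted p = 0.0215 in limma). With that block 7.74% of all probe sets passed. At stage 16 none passed without the block, beside 0.363% of all probe sets, and with it 3 were higher, beside 2.65%. They were Phm (1.13, adjusted p = 0.0332 in limma), 7B2 (1.07, adjusted p = 0.0339) and Pal2, a gene of the second step of amidation (2.55, adjusted p = 0.0471). The second Phm probe set missed there (1.08, adjusted p = 0.0507). At stage 14 with the block 1 gene was higher, Phm, by both probe sets (adjusted p = 0.0385 and 0.0393 in limma), beside 1.90% of all probe sets. The spread behind these p-values was shared with stage 16, and same-numbered arrays deviated together little at stage 14 (correlation of 0.155). Pal2 had 6.60 and 7.78 in elav-dimm embryos against 4.66 and 4.62 in control embryos at stage 16. Of 4 further precursors outside the member list with a probe set (Ilp8, Trissin, Ntl and CNMa), 0 were detected.

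**Figure D4:**
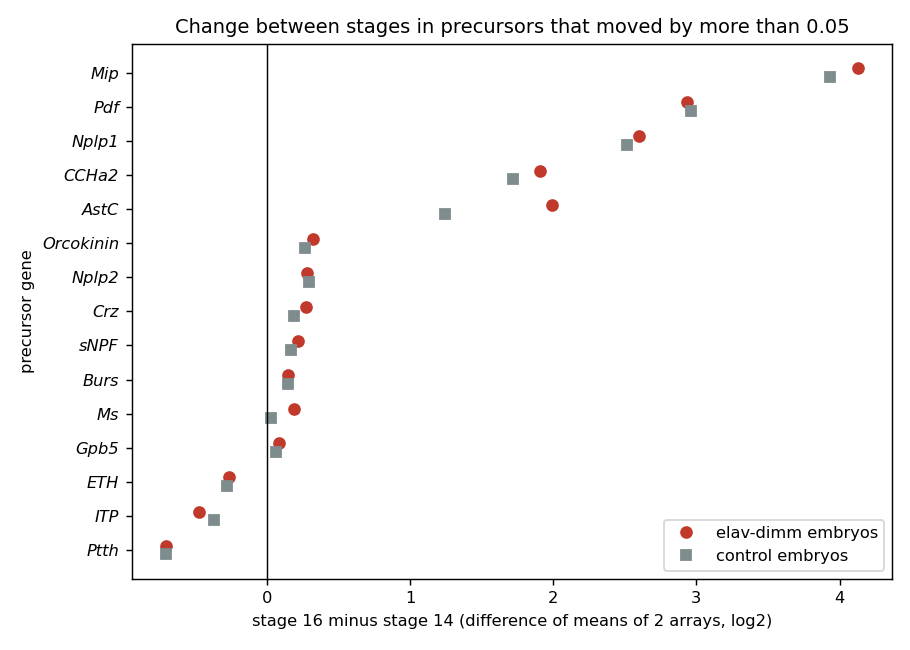
Difference of the mean log2 signal at stage 16 minus that at stage 14 (2 arrays each) in elav-dimm embryos and in control embryos. Drawn are the 15 precursors that moved by more than 0.05 in elav-dimm embryos. Mip, Pdf, Nplp1, CCHa2 and AstC lie to the right in both genotypes, and Ptth, ITP and ETH to the left.

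CCHa2, which was above 4 at both stages, was brighter at stage 16 in both genotypes. Mip and Pdf entered the fit through their stage 16 arrays alone and Nplp1 through these and 1 stage 14 array, so their direction was largely fixed by the limit of 4 and their count supports nothing. With that limit, among the 6 tested, 4 (Mip, Pdf, Nplp1 and CCHa2) were at least 2-fold higher at stage 16 without overlap in elav-dimm embryos, beside 16.3% of all tested probe sets, and the same 4 were in control embryos, beside 16.7%. None was 2-fold lower at stage 16, beside 28.3% of all tested probe sets in elav-dimm and 25.4% in control embryos. AstC, which was too dim to be tested, met the same measure, with differences of 1.99 in elav-dimm and 1.24 in control embryos that shrank to 0.35 and 0.00 with signals below 4 raised to 4. Without the first control array of stage 16, control embryos had 3.15 at stage 16, less than 2-fold above the floor of stage 14. These differences cross 2 likely normalizations and have no test.

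Of the 6, Mip differed most, by 4.13 in elav-dimm and 3.93 in control embryos, with stage 14 signals close to background. With signals below 4 raised to 4 these differences were 2.55 and 2.31. Pdf differed by 2.93 in elav-dimm and 2.96 in control embryos, or 1.43 and 1.47 with the raised floor. Nplp1 differed by 2.60 in elav-dimm and 2.52 in control embryos, and CCHa2 by 1.91 in elav-dimm and 1.72 in control embryos. ITP was lower at stage 16, with differences of -0.48 in elav-dimm and -0.37 in control embryos, and Nplp2 was higher by 0.28 in elav-dimm and 0.29 in control embryos.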

How the data were processed

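Total RNA of whole embryos was hybridised to 8 Affymetrix Drosophila Genome 2.0 arrays. The deposited values are log2 signals; the submitters' processing notes name GCRMA 2.22.0, R 2.12.1 and limma. GCRMA corrects background with probe sequence, quantile-normalises and summarises each probe set. No source used here says if both stages were normalised as 1 set.

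Here, members and lists were chosen with earlier results of these data known. Genes were named through the platform annotation and RefSeq gene identifiers. Of 18952 probe sets, 183 controls were left out. Those above 4 on at least 2 of 8 arrays (8258) were fitted with limma 3.58.1 in R 4.3.3 as 4 group means. The fit had 4 residual and 1.45 prior degrees of freedom, with Benjamini-Hochberg adjustment over all 8258 and a threshold of 0.05. Its code was also run on simulated data with independent noise between arrays, unlike the same-numbered arrays described below. That run lends the p-values no support. The planned test between stages was not made, because the values point to separate normalization. Array number limits precision.

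Every member is accounted for. Per-array values are given for members above 4 on any array or past the threshold in any comparison; those of dimmer members named were chosen after their values were seen. Non-members named are dimm and Phm, processing and marker genes past the threshold, and, chosen after their values were seen, fat body genes beside Nplp2 and the receptor and enzyme genes of the closing observations. The motif and protein descriptions planned were not made.

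Same-numbered arrays deviated together at stage 16, with a correlation across probe sets of 0.906 between genotypes. At stage 14 it was 0.155, little above the -0.0241 to 0.134 across stages. The pairing rests on the stage 16 correlation, not on the labels, and the block was fitted at both stages. Alternatives were a floor of 4, no filter, median centring, the replicate block, omission of arrays, a trended prior and other detection limits.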

Additional observations from a re-analysis of the deposited data

How the results depend on the processing

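For the average effect of dimm, the count of precursors past the threshold stayed at 0 under a floor of 4, no filter and median centring. The replicate block and a trended prior gave 0 as well. Omitting arrays left a group with 1 array, so those fits are read for precursors by effect size only. Without both number 1 arrays of stage 16, Nplp2 had -0.25. At stage 16, at stage 14 and for the difference between stages, the count was 0 under every alternative run that kept 2 arrays per group. Directions of the 6 averaged changes were kept under all alternatives, also with arrays omitted. Counts over all probe sets moved more, also where a group was left with 1 array and the spread came from the other groups. The average gave 124, but 44 with no filter, 639 with the replicate block, 816 without both number 1 arrays, and 4 to 66 without single arrays, lowest without either control array of stage 14. Stage 16 gave 30, but 4 with no filter, 219 with the replicate block, 406 without both number 1 arrays, 2 with its own arrays alone, and 2 to 13 without single arrays. Stage 14 gave 28, but 157 with the replicate block, 74 without both number 1 arrays or with its own arrays alone, and 3 to 25 without single arrays. The difference between stages gave 1, but 3 with a floor of 4, 5 with no filter, 3 with the replicate block, 38 without both number 1 arrays, and 1 to 2 without single arrays. The replicate block changed the call of no precursor. With a limit of 3 in place of 4, 5 precursors were detected in each genotype at stage 14. Fits between stages were not run, including those with no filter or with the block. Low signal over background limits most of the precursors.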

Other observations

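Receptors for these peptides were mostly as dim as the precursors. Of 25 receptor genes with a probe set, 2 were above 4 on both arrays of a group: InR, the insulin receptor gene, and Dh31-R, which encodes a receptor for the diuretic hormone Dh31. InR had 11.13 and 11.11 in elav-dimm against 11.14 and 11.09 in control embryos at stage 16, and its average change was -0.02 ± 0.08. Dh31-R had 4.04 and 4.12 in elav-dimm against 4.10 and 4.69 in control embryos at stage 16, while at stage 14 all its values were below 4, and a second probe set of the gene stayed near the floor on all arrays. Its average change was -0.37 ± 0.15 (adjusted p = 0.428 in limma). Its ligand's gene, Dh31, was at the floor on all arrays. NPFR, the receptor gene for NPF, had 3.75 and 3.75 in elav-dimm against 3.87 and 3.85 in control embryos at stage 16 and lay at the floor on all stage 14 arrays, as its ligand's gene did at both stages.

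Several processing enzymes were bright at stage 16 and near background at stage 14, in both genotypes. The convertase gene amon had 7.70 and 8.28 in elav-dimm against 6.22 and 7.54 in control embryos at stage 16, and 2.77 and 2.41 against 2.33 and 2.27 at stage 14. QC, a glutaminyl cyclase gene, had 7.67 and 7.33 in elav-dimm against 8.24 and 7.78 in control embryos at stage 16, and at most 2.98 on any stage 14 array.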
